A study of Solanum tuberosum and Solanum acaule with 12 samples.

Results

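The loci described here are those of the potato cultivar Solanum tuberosum cv. Atlantic whose transcript placements all lie on a single copy of a single chromosome. Atlantic is an autotetraploid, and the study's placement table gives its chromosomes a number and a copy from 1 to 4. A locus is the set of assembled transcripts that share an identifier up to the transcript number. A locus was taken when every placement of its transcripts fell on 1 chromosome name ending in copy 1, 2, 3 or 4, and its measured level played no part. Of 60683 Atlantic loci 15975 met this rule, 32710 were placed on several chromosome names or on a name other than copies 1 to 4, and 11998 had no placement in the table. They are called single-copy loci below, a statement about the placement table and not about the number of alleles in the plant.

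The libraries came from shoots of Atlantic under control conditions (long days) and after freezing, in which shoot explants went from 22 °C down to -4 °C, falling 2 °C each hour. Each of the 2 groups held 3 biological replicates, and both groups are the same cultivar; whether a replicate is a separate plant is not stated. The assay was RNA-seq of total RNA with stranded mRNA libraries. Each value is a signal per transcript scaled per length and library (TPM-like, with a TMM library factor), and the signal of a locus is the sum over its transcripts. The other species of the study, Solanum acaule, has its own assembly and was not used here.

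In an autotetraploid each chromosome is present as a set of homologous copies that pair freely, so a gene can be held as several alleles, and in potato these copies differ widely in sequence and in gene content. A transcript assembled from an allele that is distinct enough can be placed on that copy alone. Plants that meet cold adjust transcription broadly: cold-induced transcription factors raise protective genes, while growth and photosynthesis genes are often lowered. None of the 94741 gene models and none of the 60683 loci matched the reference gene table (0 matches each), so loci are given by identifier and position, and neither a function nor the labelled tissue could be checked by gene names.

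Library totals ran from 961746 to 1102442, the highest in freezing replicate 2. That library stood apart from its group: expressed single-copy loci had a median signal of 2.01 in it and between 2.44 and 2.499 in the other 5 libraries. Over these loci, control libraries correlated at 0.949 to 0.958 with each other on the log2(signal + 1) scale and freezing libraries at 0.878 to 0.927, across loci that are not independent replicates. Sequencing depth is unknown, since the values are not counts, and precision rests on the replicates.

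Most single-copy loci were barely detected. A signal of 1 or more in at least 3 of the 6 libraries, the minimum used for all tests, was reached by 3273 of the 15975, which is 20.5%. The same minimum was reached by 63.7% of the other placed loci and 24.4% of the loci with no placement. No library reached 1 for 10238 single-copy loci, while 1846 reached it in all 6. Just outside the minimum were 831 loci at 1 or more in 2 libraries, with a median mean signal of 0.795, and just inside it 650 loci at 1 or more in 3 libraries, with a median of 1.07.

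Every copy of every chromosome held such loci. Copy 1 held 3577, copy 2 held 4164, copy 3 held 4322 and copy 4 held 3912, of which 770, 848, 926 and 729 were expressed at the minimum. The counts on a single chromosome copy ran from 114 on copy 3 of chromosome 10 to 630 on copy 2 of chromosome 1. As a share of all loci with a placement on that chromosome copy they ran from 11.4% on copy 3 of chromosome 10 to 23.2% on copy 2 of chromosome 12. Chromosome 10 had the fewest single-copy loci, 566, and the highest share of them expressed, 26.5%, against 17.9% to 22.9% on the other chromosomes. Along the chromosome copies they followed other placements in being dense at the ends. With each copy's placed span cut into 5 equal stretches, the last held 32.3% of the single-copy loci and 40.1% of the other placements, and the middle one held 11.4% and 8.89%.

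**Figure D1:**
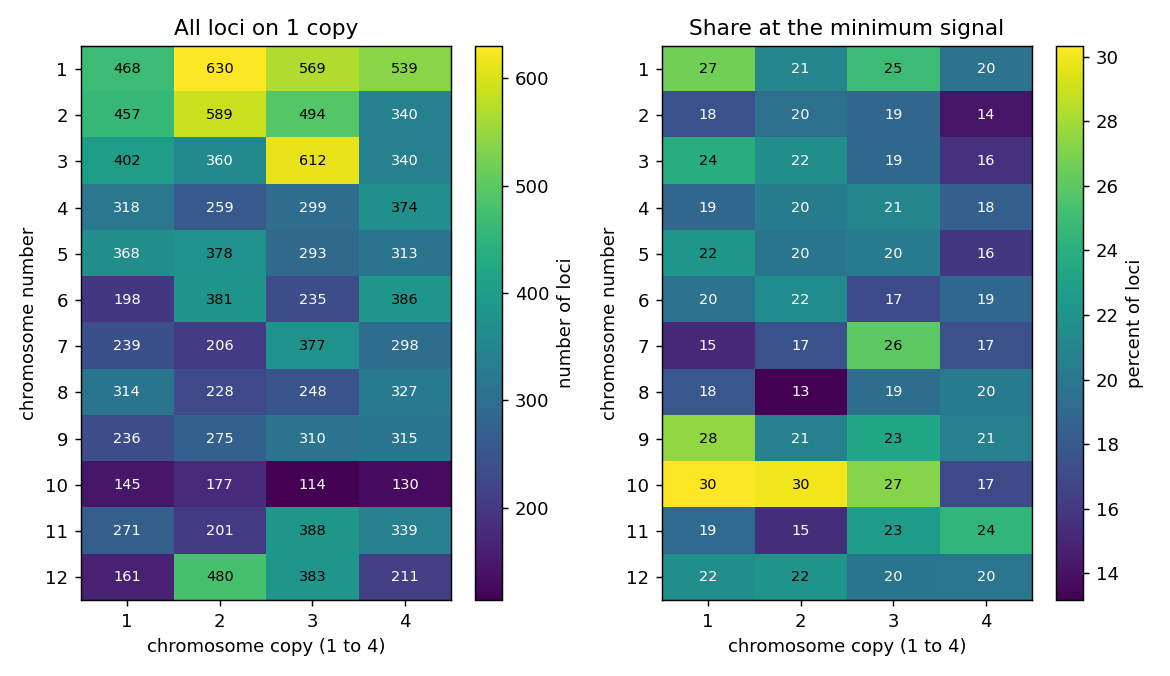
Left, the number of single-copy loci on each chromosome (rows, 1 to 12) and copy (columns, 1 to 4); right, the percent of them at a signal of 1 or more in at least 3 libraries. Counts run from 114 to 630, with the highest on chromosomes 1, 2 and 3 and the lowest on chromosome 10, while the expressed share is highest on chromosome 10, at 30.3% and 29.9% on its copies 1 and 2.

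The expressed single-copy loci were short in structure and low in level. A single assembled transcript made up 57.5% of them, against 4.84% of the other expressed placed loci, whose median was 6 transcripts. Expressed loci with no placement were alike, at 59.7%. The rule itself favours few transcripts, since each further transcript can add another chromosome name. All transcripts of the locus had a placement for 2735 single-copy loci, and 538 also held transcripts that the placement table does not place. The value of those 538 is a sum over placed and unplaced transcripts. The stretch from the first to the last placed base had a median of 2.64 kb, and in 28 loci it exceeded 1 Mb. Whether that came from distant placements or from long single placements was not examined for the 28. The median signal in control was 2.47, against 11.3 for all other tested loci, 2.60 for those with no placement and 13.5 for the other placed ones. Of the single-copy loci, 5% were under 0.676 and 5% over 47.6. A mean signal of at least 10 was reached by 639 of them (19.5%) and at least 100 by 79 (2.41%).

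As a group these loci held a steady share of the signal. All 15975 together took 5.59%, 5.46% and 5.39% of the signal in control replicates 1, 2 and 3 and 5.73%, 5.32% and 5.43% in freezing replicates 1, 2 and 3. The groups overlapped, with a freezing minus control difference of 0.0142 percentage points (two-sided exact permutation test, p = 0.9, with 0.1 the lowest value 3 against 3 allows; adjusted p = 1 over 8 library measures). Within their summed signal, copy 1 gave 26.5% ± 0.0894 in control and 26.4% ± 0.901 after freezing, and copy 3 gave 30.4% ± 0.618 and 31.1% ± 1.47 (± SD, n = 3 each). Copy 2 gave 19.0% ± 0.686 and 19.4% ± 3.03, and copy 4 gave 24.2% ± 0.461 and 23.1% ± 2.10 (± SD, n = 3 each). No copy's share passed an exact permutation test (p = 0.4 to 1, two-sided; adjusted p = 1), and the freezing libraries spread more than the control libraries on each copy.

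Freezing raised some of these loci and lowered more of them. With limma on log2(signal + 1), fitted on all 27034 expressed Atlantic loci with Benjamini-Hochberg adjustment at 0.05, 208 of the 3273 expressed single-copy loci were higher (6.36%) and 348 lower (10.6%). Over all tested loci 4.54% were higher and 8.54% lower. Of the single-copy loci, 127 rose and 199 fell by at least 2-fold, where 2.43% and 5.36% of all loci did so. The replicates of the groups were fully separated for 501 loci on the higher side (15.3%) and 757 on the lower side (23.1%), against 15.8% and 20.2% of all tested loci. The median log2 change was -0.04 over the 3273 and -0.02 over all loci, 1.14 over those that rose and -1.09 over those that fell. The counts rested on every control library: 26, 46 and 56 were higher and 59, 94 and 112 lower when control replicate 1, 2 or 3 was left out, and 69 and 161 when freezing replicate 3 was. Leaving out freezing replicate 2, which stood apart, gave 266 higher and 334 lower. Blocking on the replicate number left 58 higher and 117 lower, where 1.21% and 2.68% of all loci were called.

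The shares called differed between classes of loci. Loci with no placement fell in 25.5% of cases and rose in 3.35%, and other placed loci in 5.82% and 4.42%. Against the other placed loci the share of single-copy loci called lower was the larger in every class of mean signal, from 12.2% against 9.39% under a signal of 2 to 7.51% against 3.51% at 50 and over. The share called higher was also the larger in every class, for example 7.33% against 3.76% under a signal of 2 and 8.15% against 5.16% between 10 and 50; at 50 and over it was 6.36% against 6.11%. Single-copy loci with 1 transcript rose in 8.18% and fell in 11.4% of cases, and those with 2 or more rose in 3.88% and fell in 9.57%. Other placed loci with 1 transcript rose in 6.54% and fell in 14.5%, so among loci with 1 transcript the share called lower was the smaller in single-copy loci; with 2 or more the other placed loci rose in 4.31% and fell in 5.38%. These differences between classes of loci were not tested, and loci are not independent replicates. The minimum could also be met through 1 group alone. Under 1 in at least 1 library were 43.6% of tested single-copy loci, against 12.4% of other placed loci. With no filter, single-copy loci were called less often than all loci (1.47% against 1.595% higher, 1.82% against 2.84% lower). With a minimum of 5 they were called more often (6.275% against 4.17% higher, 8.04% against 5.32% lower).

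**Figure D2:**
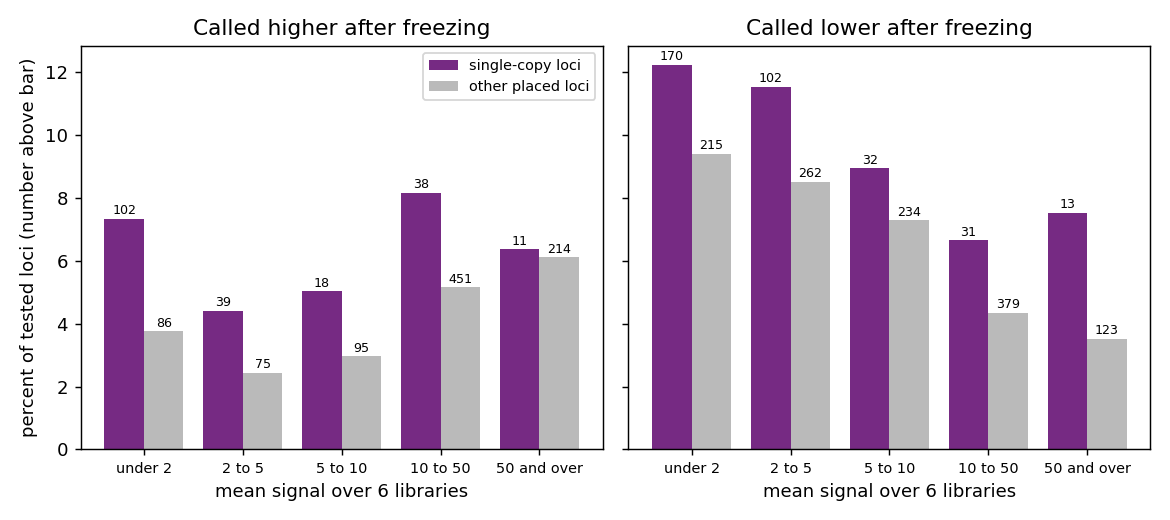
Percent of tested loci called higher (left) or lower (right) after freezing by limma, in 5 classes of mean signal over the 6 libraries, for single-copy loci and for other placed loci; numbers above the bars are loci called. The bar of the single-copy loci is the higher in each class, from 12.2% against 9.39% for lower calls under a signal of 2 to 7.51% against 3.51% at 50 and over.

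Across the copies, 7.27%, 4.95%, 5.62% and 7.96% of the expressed single-copy loci rose on copies 1, 2, 3 and 4, and 10.4%, 11.7%, 9.72% and 10.8% fell. Across the chromosomes the share that rose ran from 2.32% on chromosome 12 (6 of 259) to 8.57% on chromosome 4 (21 of 245). The share that fell ran from 7.69% on chromosome 6 (18 of 234) to 14.7% on chromosome 9 (38 of 259). Chromosome 12 had 36 lower against 6 higher, and chromosome 6 had 18 of each. None of these differences between copies or chromosomes was tested.

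The 10 largest rises among called loci (mean signal 10 or over in whichever group was higher, replicates fully separated) began with AtlantEVm038020. It lies at 64422838 to 64423734 on copy 4 of chromosome 1, as the table gives positions, within gene model Soltu.Atl.01_4G031630. Its signal was 1.32, 1.64 and 1.45 in control replicates 1 to 3 and 17.0, 13.8 and 51.3 in freezing replicates 1 to 3. Every freezing library was above every control library, and freezing replicate 3 was the highest. The log2 fold change was 3.29 (SE 0.46, limma adjusted p = 0.0108), and the call was lost without control replicate 1 (limma adjusted p = 0.0538).

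Chromosome 4 held 4 of these 10 loci, each on a different copy. AtlantEVm015201, at 22050374 to 22061127 on copy 4, had signals of 1.52, 1.03 and 1.62 in control and 8.34, 12.1 and 12.5 after freezing (log2 fold change 2.32, SE 0.22, limma adjusted p = 0.00496). AtlantEVm015206, at 23688491 to 23692988 on copy 1, went from 2.78, 2.79 and 6.79 to 14.7, 22.5 and 32.1 (log2 fold change 2.26, SE 0.39, limma adjusted p = 0.0172). AtlantEVm052869, at 15946721 to 15947359 on copy 2, went from 2.25, 4.44 and 6.46 to 37.5, 17.5 and 26.8 (log2 fold change 2.41, SE 0.38, limma adjusted p = 0.0143). The freezing libraries of all these loci were clear of the control libraries. The last, AtlantEVm052212 at 20169904 to 20170726 on copy 3, rose from 1.87 ± 0.680 to 12.05 ± 3.87 (± SD, n = 3 each; log2 fold change 2.17, limma adjusted p = 0.00977). AtlantEVm015201 was called under all 14 alternatives. AtlantEVm015206 was not called without control replicate 1 or 2 or freezing replicate 3 (limma adjusted p = 0.0516 to 0.0729), AtlantEVm052869 without control replicate 1 or 2 or with the replicate block (0.052 to 0.0555), and AtlantEVm052212 without control replicate 1 (0.0518).

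AtlantEVm025607 rose with little spread, from 12.4, 8.94 and 8.12 in control to 43.6, 56.4 and 44.2 after freezing (log2 fold change 2.19, SE 0.20, limma adjusted p = 0.00482). The placements of its transcripts fell at 2 points of copy 3 of chromosome 3, within Soltu.Atl.03_3G001950 and Soltu.Atl.03_3G003830, whose outermost starts are 2102 kb apart. It was called under all 14 alternatives. AtlantEVm064013, on copy 2 of chromosome 7 at 20169870 to 20170623, had 14.3, 15.8 and 8.55 in control and 85.2, 64.5 and 51.0 after freezing (log2 fold change 2.30, limma adjusted p = 0.00823). Only 15.8% of its signal came from its placed transcript, and from that transcript alone the log2 fold change was 1.32 and not called (limma adjusted p = 0.0735).

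The other 3 loci of the rule rose with wider spread. AtlantEVm024744 on copy 1 of chromosome 3 rose from 5.94 ± 2.94 to 34.3 ± 10.6 (± SD, n = 3 each; limma adjusted p = 0.0153), but missed the threshold on leaving out control replicate 2 or freezing replicate 3 (limma adjusted p = 0.0504 and 0.05004). AtlantEVm013148 on copy 4 of chromosome 9 rose from 1.897 ± 0.310 to 18.9 ± 16.1 (± SD, n = 3 each; limma adjusted p = 0.0283), with 37.4 in freezing replicate 3 against 8.18 and 11.2 in replicates 1 and 2. Its call was lost without any control replicate (limma adjusted p = 0.0825 to 0.101). AtlantEVm034023 on copy 2 of chromosome 2 rose from 4.51 ± 3.75 to 21.9 ± 8.09 (± SD, n = 3 each; limma adjusted p = 0.041), and lost its call under 8 of 14 alternatives, among them without control replicate 1 or 2 or freezing replicate 2 or 3 (limma adjusted p = 0.0732 to 0.132).

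Among the loci that fell, AtlantEVm025373 lies at 778548 to 779089 on copy 3 of chromosome 3, in gene model Soltu.Atl.03_3G001030. Its signal was 633, 210 and 445 in control replicates 1 to 3 and 8.28, 39.0 and 20.2 in freezing replicates 1 to 3 (log2 fold change -4.30, SE 0.61, limma adjusted p = 0.0108). Every freezing library was below every control library. It was among the 10 most abundant single-copy loci in control, and it missed the threshold without control replicate 1 or with the replicate block (limma adjusted p = 0.0518 and 0.0504). On copy 4 of the same chromosome, AtlantEVm019582 was placed at 719621 to 732382 and went from 473, 246 and 343 to 20.2, 77.4 and 37.3 (log2 fold change -3.10, SE 0.49, limma adjusted p = 0.014). At these loci freezing replicate 2 kept the most signal and freezing replicate 1 the least. Only 20.9% of the signal of AtlantEVm019582 came from placed transcripts, and it was not called without control replicate 1 or 3 or with the block (limma adjusted p = 0.0539 to 0.0627).

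AtlantEVm004137 and AtlantEVm005920 came next by log2 change with a pseudocount of 1; with a pseudocount of 0.1 AtlantEVm005920 had the larger log2 change, -4.98, against -4.37 for AtlantEVm025373. AtlantEVm004137, a single transcript at 23479453 to 23482417 on copy 4 of chromosome 11, had 201, 239 and 102 in control and 6.31, 9.82 and 15.5 after freezing (log2 fold change -3.97, SE 0.41, limma adjusted p = 0.005996). AtlantEVm005920, with 5 transcripts at 4449383 to 4456640 on copy 2 of chromosome 7, had 19.9, 25.5 and 34.0 in control and 0.742, 1.51 and 0.305 after freezing (log2 fold change -3.91, SE 0.30, limma adjusted p = 0.00416). Both were called under all 14 alternatives, and no other locus shared a gene model with either.

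Chromosome 6 held falls on copy 1 and on copy 4. No locus placed on several copies of the chromosome shared a gene model with both. AtlantEVm026162 on copy 1, at 19876440 to 19892188, went from 77.9, 87.7 and 32.6 to 5.45, 9.32 and 5.45 (log2 fold change -3.03, SE 0.40, limma adjusted p = 0.00951). AtlantEVm026168 on copy 4, at 27716771 to 27717636, went from 72.1, 78.8 and 31.0 to 4.76, 11.1 and 8.46 (log2 fold change -2.71, SE 0.43, limma adjusted p = 0.0139). For both, control replicate 3 was the lowest control and still above every freezing library. The first lost its call without control replicate 1 (limma adjusted p = 0.0504) and the second without control replicate 1 or 2 (0.064 and 0.0556).

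The remaining falls of the rule came from chromosomes 4, 8 and 12. AtlantEVm002588 on copy 1 of chromosome 4 fell from 57.5 ± 9.06 to 7.35 ± 4.63 (± SD, n = 3 each; limma adjusted p = 0.011), with a limma adjusted p of 0.0519 without control replicate 1. On chromosome 12, AtlantEVm026404 on copy 1 fell from 38.9 ± 8.93 to 5.57 ± 2.77 and AtlantEVm085513 on copy 2 from 12.2 ± 4.07 to 1.16 ± 0.544 (± SD, n = 3 each; limma adjusted p = 0.0092 and 0.00825); both were called under all 14 alternatives. AtlantEVm017412, at 13182815 to 13184110 on copy 3 of chromosome 8, had 573, 247 and 587 in control and 35.0, 146 and 74.95 after freezing (limma adjusted p = 0.0342). It lost its call under 7 of 14 alternatives, including without any one of the 3 control replicates and without freezing replicate 1 or 3 (limma adjusted p = 0.052 to 0.119).

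**Figure D3:**
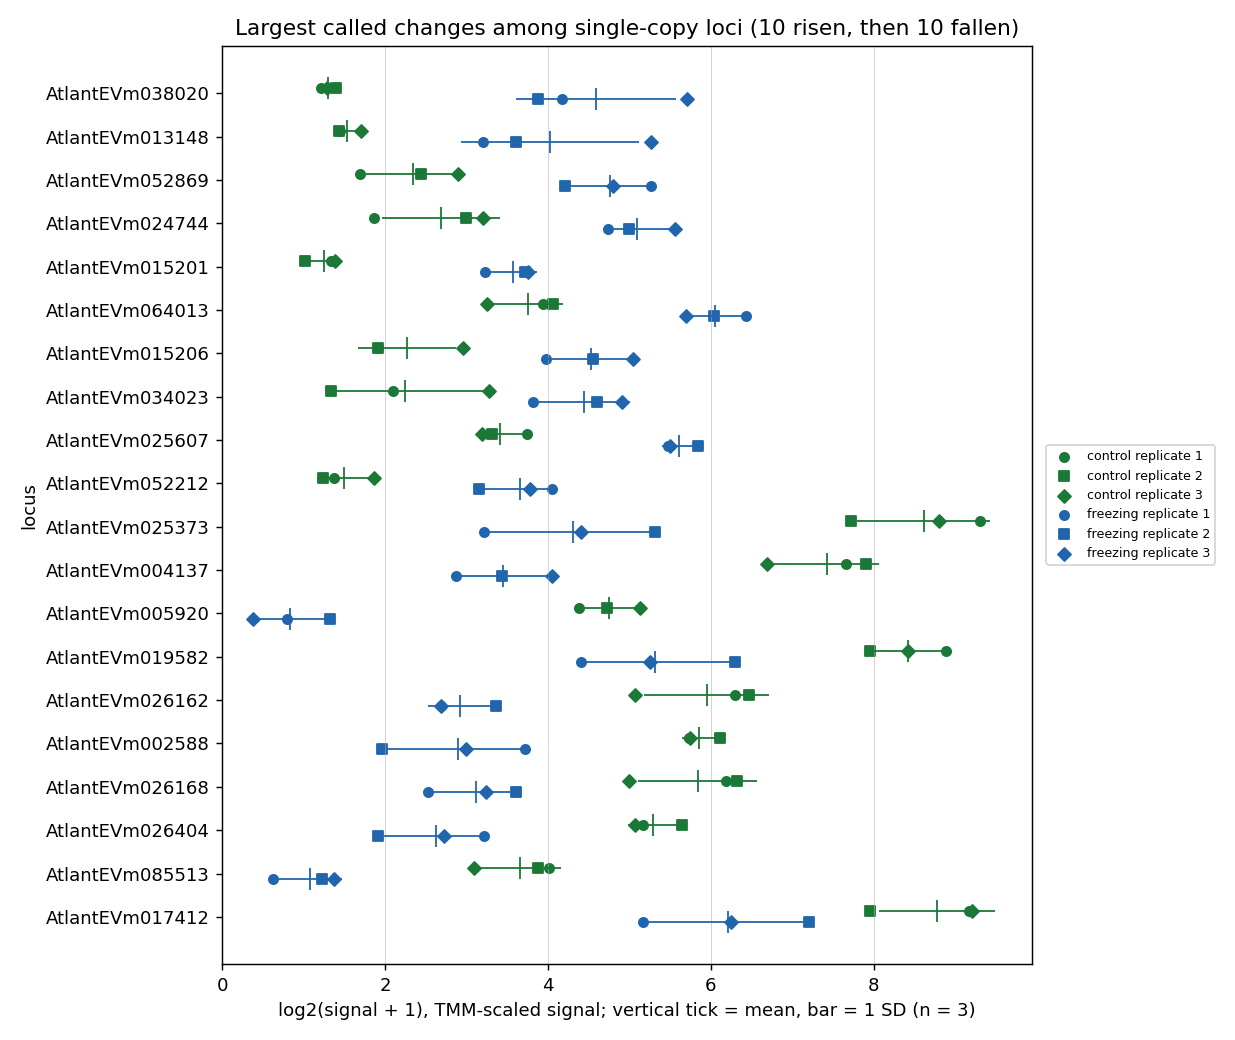
Signal of the 10 single-copy loci with the largest called rises and the 10 with the largest called falls, on a log2(signal + 1) axis; green symbols are the 3 control replicates, blue symbols the 3 freezing replicates, ticks means and bars 1 SD. The groups do not overlap at any of the 20 loci, as the rule required, and the falls reach a log2 change of -4.30 against 3.29 for the rises.

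A few loci were listed at 0 throughout a group. All 3 control libraries were at 0 and all 3 freezing libraries at 1 or more for 4 single-copy loci, and the reverse held for 4 others; among the 20832 other placed loci tested the counts were 2 and 3. Named after their values were seen, those that appeared were AtlantEVm023342 (3.11, 3.57 and 5.11 in freezing replicates 1 to 3), AtlantEVm066817 (1.53, 1.895 and 2.42), AtlantEVm032761 (2.02, 1.22 and 2.51) and AtlantEVm066770 (1.23, 1.14 and 1.94). Those that disappeared were AtlantEVm099837 (8.12, 4.06 and 4.97 in control replicates 1 to 3), AtlantEVm072037 (6.06, 1.86 and 1.76), AtlantEVm073206 (2.26, 2.88 and 1.54) and AtlantEVm054795 (1.14, 1.79 and 1.40). These 8 were chosen on their values and reached the minimum through 1 group alone, so no test is given. Their levels are near the minimum, so a 0 can stand for a low level that was not detected at an unknown depth.

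Of the 10 most abundant single-copy loci in control 3 were called, where 17.0% of all expressed single-copy loci and 13.1% of all tested loci were. AtlantEVm027637, at 12753697 to 12754400 on copy 1 of chromosome 10, led with 3963, 2106 and 3235 in control and 1687, 4164 and 2339 after freezing. It was followed in control by AtlantEVm031570 on copy 4 of chromosome 9 (2285 ± 508, then 1905 ± 308 after freezing), AtlantEVm029275 on copy 3 of chromosome 8 (2013 ± 779 and 2582 ± 1316), AtlantEVm024246 on copy 3 of chromosome 1 (1893 ± 357 and 1991 ± 214) and AtlantEVm029958 on copy 1 of chromosome 10 (1579 ± 134 and 1564 ± 709; ± SD, n = 3 each throughout). Neighbours in this order overlapped in their replicates. None of these 5 was called (limma adjusted p = 0.63 to 0.882), and the 95% intervals of their log2 changes reached from -1.30 to 1.39 at the widest. In AtlantEVm031570, AtlantEVm029275 and AtlantEVm029958, 52.8%, 31.5% and 29.0% of the signal came from placed transcripts, and the rest from transcripts with no placement.

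Of the next 5, 3 were called, and all of them fell. Besides AtlantEVm025373 and AtlantEVm017412, AtlantEVm047040 at 29041105 to 29044371 on copy 1 of chromosome 4 went from 503, 507 and 383 to 194, 57.5 and 136 (log2 fold change -1.99, SE 0.43, limma adjusted p = 0.0322). That call was lost without any one of the 3 control replicates, without freezing replicate 3 and with the block (limma adjusted p = 0.0658 to 0.112). AtlantEVm026312 on copy 1 of chromosome 1 had 489, 431 and 396 in control and 409, 560 and 437 after freezing and was not called (limma adjusted p = 0.81). Close to it on the same copy, AtlantEVm027768 was the most variable, with 257, 937 and 145 in control and 2344, 118 and 867 after freezing (limma adjusted p = 0.65). The 10 loci together made up 24.4% ± 2.50 of the summed single-copy signal in control and 22.3% ± 3.65 after freezing (± SD, n = 3; two-sided exact permutation test, p = 0.5).

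Few of the called loci stood next to each other. Runs of neighbouring expressed single-copy loci called in the same direction within 100 kb of each other numbered 9 for rises and 26 for falls. In several of them all loci lay on 1 gene model, and the same count was not made for other loci. Only 1 run was longer than 2 loci. That run, on copy 1 of chromosome 4 at 5595586 to 5615688, held AtlantEVm073206, AtlantEVm040084 and AtlantEVm081572, all of them low. Their summed signal was 7.05, 7.15 and 4.97 in control and 1.37, 1.42 and 1.37 after freezing. AtlantEVm073206 and AtlantEVm040084 lie on the same gene model and reached the minimum through the control group alone. No test is therefore given for them, and their calls do not support the run. AtlantEVm081572 lost its call under 6 alternatives (limma adjusted p up to 0.101), among them without control replicate 1 or 2 or freezing replicate 3.

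The pairs with the most signal included a repeated arrangement on copy 1 of chromosome 8. AtlantEVm024843 was placed at 24210164 and again 542.5 kb further on, and AtlantEVm013768 at 24230538 and again 542.6 kb further on. AtlantEVm024843 fell from 73.0 ± 15.5 to 17.1 ± 5.31 and was called under all 14 alternatives, and AtlantEVm013768 fell from 27.0 ± 1.85 to 12.9 ± 4.35 (± SD, n = 3 each; limma adjusted p = 0.00825 and 0.0337). The second was not called under 7 alternatives, among them without any one of the 3 control replicates (limma adjusted p = 0.101 to 0.123) and without freezing replicate 1 or 3 (0.0681 and 0.0859). On copy 2 of chromosome 1 AtlantEVm015055 fell from 235.8 ± 64.0 to 99.9 ± 16.7 and AtlantEVm049060, inside the same 69.8 kb, from 7.63 ± 1.40 to 2.95 ± 0.685 (± SD, n = 3 each). On copy 3 of chromosome 1 AtlantEVm003042 and AtlantEVm016150, with 0.273 kb between them, together went down from 54.9 ± 0.348 to 32.1 ± 4.19, although placed transcripts gave only 5.89% of the signal of AtlantEVm003042, which missed the threshold from them alone (limma adjusted p = 0.0562), while on copy 1 of chromosome 5 the overlapping AtlantEVm079778 and AtlantEVm032637 together went up from 42.7 ± 3.98 to 80.9 ± 16.6 (± SD, n = 3 each). All 6 loci of these last 3 pairs lost their calls without control replicate 1 or 2 (limma adjusted p = 0.0656 to 0.137). AtlantEVm079778 and AtlantEVm032637 lie on the same gene model and can share reads. AtlantEVm015055 and AtlantEVm049060 also have a gene model in common, Soltu.Atl.01_2G003790.

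A placement on a single copy often did not mean that the gene model was alone. Of the 3273 expressed single-copy loci, 2427 (74.2%) lay on a gene model that also carried another locus. The same held for 76.5% of the other expressed placed loci, so such sharing was not particular to single-copy loci. For 1688 of them (51.6%) at least 1 of those others was expressed and placed on 2 or more copies of the same chromosome. A further 681 shared a gene model only with loci not placed on several copies of that chromosome, 58 shared one with multi-copy loci that were not expressed, and 846 (25.8%) shared with none. The placement table gives no strand, so loci on 1 gene model need not be transcripts of the same gene. Loci that shared with none had a median mean signal of 4.27, against 1.92 for those beside a multi-copy locus. Higher calls were made for 4.37% and 8.06% of these classes and lower calls for 11.6% and 9.60%, differences that were not tested.

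For each of the 1688 the most abundant such multi-copy locus was taken as its companion, 1191 different loci in all. The companion had a median mean signal of 30.1 and the single-copy locus 1.92, and the single-copy locus was the lower in 91.6% of pairs, a direction that the choice of the most abundant companion favours. Among the 136 single-copy loci that rose, the companion was also called higher for 17, lower for 2 and not called for 117. Among the 162 that fell it was also lower for 23, higher for 10 and not called for 129. Over all 1688 pairs 6.04% of companions were higher and 3.61% lower. A higher companion beside a fallen locus was thus about as frequent as over all pairs. A lower companion beside a risen locus was less frequent than over all pairs, and these shares were not tested.

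The change of the single-copy locus relative to its companion was tested as the log2 ratio of signal + 1 within each library, with limma over the 1688 pairs. The added 1 damps changes of low loci. Equal fold changes of a low single-copy locus and an abundant companion can therefore give a ratio call. The ratio rose for 84 (4.98%) and fell for 139 (8.23%), with median changes of 1.27 and -1.41. In 139 of these 223 pairs the single-copy locus was itself called, and in the others it was not. The 223 include all 12 pairs with opposite calls and 4 of the 40 pairs with calls in the same direction. That contrast is largely built in, since the ratio change is the difference between the log2 changes of the pair. For pairs with opposite calls the ratio therefore gives no separate support. The 223 calls became 55, 65 and 110 when control replicate 1, 2 or 3 was left out, 111 on leaving out freezing replicate 3, and 242 on leaving out freezing replicate 2. Pairs that share a companion are not independent, and how reads were divided between near-identical loci is not given in the sources used here.

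**Figure D4:**
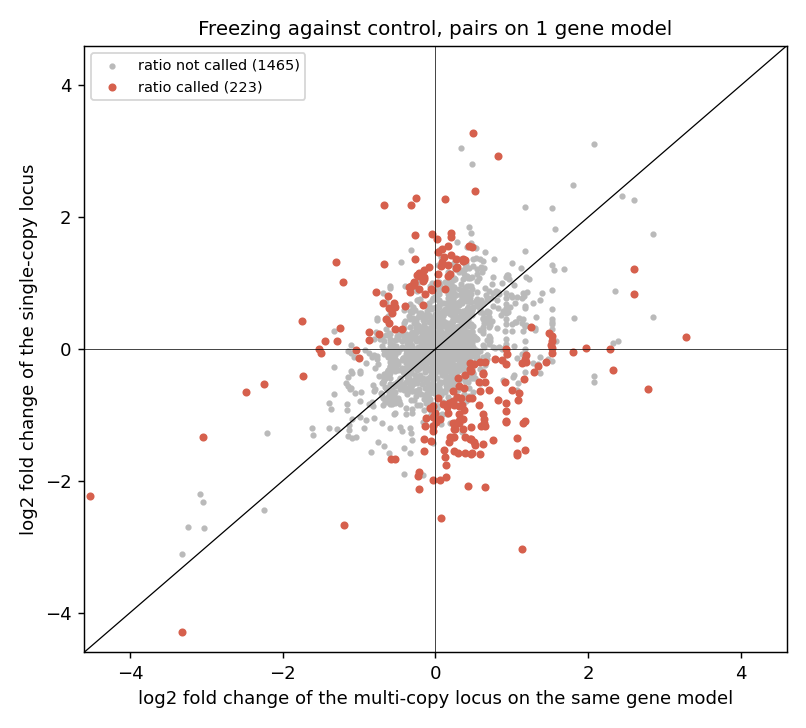
Log2 fold change after freezing of each single-copy locus (vertical axis) and of the multi-copy locus on the same gene model (horizontal axis), for 1688 pairs; the diagonal marks equal change and red points the 223 pairs whose ratio was called by limma. The 12 pairs with opposite calls lie to the upper left and lower right of the origin, 10 of them with a fallen single-copy locus. Those 10 are out of 162 fallen loci, where 6.04% of all companions were called higher.

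Some single-copy loci were called while the companion was not. AtlantEVm038020, the largest rise, had AtlantEVm003866 as companion, placed on 4 copies, with 37.8, 35.6 and 40.3 in control and 43.6, 61.1 and 57.3 after freezing. Every freezing library of the companion was above its control libraries, with a log2 fold change of 0.49 that was not called (limma adjusted p = 0.103), and the log2 ratio changed by 2.80 (SE 0.45, limma adjusted p = 0.0107). AtlantEVm017412, with 573, 247 and 587 in control, had the companion AtlantEVm011763 at 23.6, 22.1 and 22.3 in control and 24.2, 22.8 and 24.4 after freezing. Its log2 ratio fell by 2.63 (SE 0.59, limma adjusted p = 0.0291), and here the single-copy locus was the more abundant of the pair.

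Other pairs moved in the same direction. The companion of both AtlantEVm025373 and AtlantEVm019582 was AtlantEVm017389, placed on all 4 copies of chromosome 3, which fell from 872, 454 and 702 to 33.0, 130 and 62.7 (log2 fold change -3.31, SE 0.50, limma adjusted p = 0.0129). The order of its libraries was that of both single-copy loci, with freezing replicate 2 the highest and freezing replicate 1 the lowest of the freezing group. The ratio to it fell by 0.98 for AtlantEVm025373 (SE 0.22, limma adjusted p = 0.031) and changed by 0.21 for AtlantEVm019582, which was not called (limma adjusted p = 0.446). On chromosome 4 AtlantEVm015201 and AtlantEVm015206 lay beside the multi-copy loci AtlantEVm014880 and AtlantEVm014875, which rose by 2.44 and 2.596 on the log2 scale (limma adjusted p = 0.0128 and 0.00887). These 2 single-copy loci of chromosome 4 were not linked to each other through a shared multi-copy locus, whereas AtlantEVm025373 and AtlantEVm019582 were. AtlantEVm015201 was, however, linked to AtlantEVm014887 on copy 1, which lay 5.12 kb from AtlantEVm015206. AtlantEVm014887 and AtlantEVm015206 had the same companion, AtlantEVm014875. In all, 572 expressed single-copy loci (17.5%) were linked through a multi-copy locus on both gene models to a single-copy locus on another copy of the same chromosome.

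The pairs with opposite calls included AtlantEVm026162, which fell on chromosome 6 while its companion AtlantEVm007770, placed on 3 copies, rose from 28.2, 29.0 and 44.2 to 84.9, 76.0 and 61.9 (log2 fold change 1.13, limma adjusted p = 0.0241). The log2 ratio fell by 4.16 (SE 0.54, limma adjusted p = 0.00597). AtlantEVm026162 was placed on 4 gene models, of which the companion need share only 1. Fallen loci with a higher companion (10 of 162) were about as frequent as higher companions over all pairs (6.04%). The following were named after their values were seen. AtlantEVm015465, at 42706832 to 42710085 on copy 1 of chromosome 3, fell from 12.7, 18.4 and 16.3 to 2.68, 2.82 and 3.22. Its companion AtlantEVm009078, placed on 4 copies, rose from 11.8, 14.1 and 10.9 to 18.2, 18.6 and 22.9, and the ratio fell by 2.74 (SE 0.19, limma adjusted p = 0.00244). AtlantEVm041445, at 1640931 to 1642574 on copy 4 of chromosome 4, fell from 6.14, 4.64 and 5.16 to 1.55, 0.61 and 1.49, while AtlantEVm001869 on its gene model rose from 65.2, 94.6 and 94.9 to 158.6, 166.7 and 262.

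In the reverse direction, AtlantEVm017132 on copy 2 of chromosome 6 rose from 1.69, 1.24 and 0.859 to 6.25, 3.14 and 4.75 while its companion AtlantEVm001355, placed on 2 copies, fell from 31.8, 28.3 and 29.2 to 14.7, 7.20 and 14.1 (log2 ratio 2.62, SE 0.21, limma adjusted p = 0.00318). AtlantEVm046438 on copy 4 of chromosome 6 went from 0.587, 0.35 and 0.351 to 1.42, 1.47 and 1.895, and AtlantEVm013522 beside it went from 15.4, 16.3 and 16.3 to 11, 7.80 and 8.29. AtlantEVm046438 reached the minimum through the freezing group alone, so no test is given for it. In both pairs the multi-copy locus kept more signal than the single-copy locus after freezing.

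Several single-copy loci were high in a single library only. A library at 10 or more and at least 5 times every other library was found for 26 of the 3273 (0.794%), against 104 of the other 23761 tested loci (0.438%). Freezing replicate 2 was that library for 14 of the 26, freezing replicate 1 for 7 and freezing replicate 3 for 3, while control replicates 1 and 2 accounted for 1 each and control replicate 3 for 0. For the 104 others it was freezing replicate 2 for 62, freezing replicate 1 for 26 and control replicate 2 for 11, so the lead of freezing replicate 2 was not particular to single-copy loci. AtlantEVm053665, at 6046953 to 6047613 on copy 2 of chromosome 10, had a signal of 1375 in freezing replicate 1 and at most 12.05 elsewhere. AtlantEVm041679, at 30144493 to 30145113 on copy 4 of chromosome 1, had 2296 in freezing replicate 2 and between 20.0 and 92.0 elsewhere. These loci were chosen on their values and are given with no test.

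Part of the loci high in freezing replicate 2 were neighbours. On copy 2 of chromosome 7, AtlantEVm004044, AtlantEVm010793 and AtlantEVm018610 lay between 8434672 and 8448980 and had signals of 15.5, 14.3 and 48.9 in that library, against at most 3.01, 2.41 and 6.51 in any other. On copy 1 of chromosome 11, AtlantEVm030733, AtlantEVm008442 and AtlantEVm018386, between 16188388 and 16640074, had 63.1, 98.4 and 116.7 there, against at most 8.39, 13.2 and 9.59 elsewhere. On copy 4 of chromosome 1, the overlapping AtlantEVm009638 and AtlantEVm020541 were high in freezing replicate 3 instead, at 20.2 and 47.95 against at most 3.23 and 6.49. Freezing replicate 2 also had the highest library total and the lowest median signal, and the part of that in these values was not tested.

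**Figure D5:**
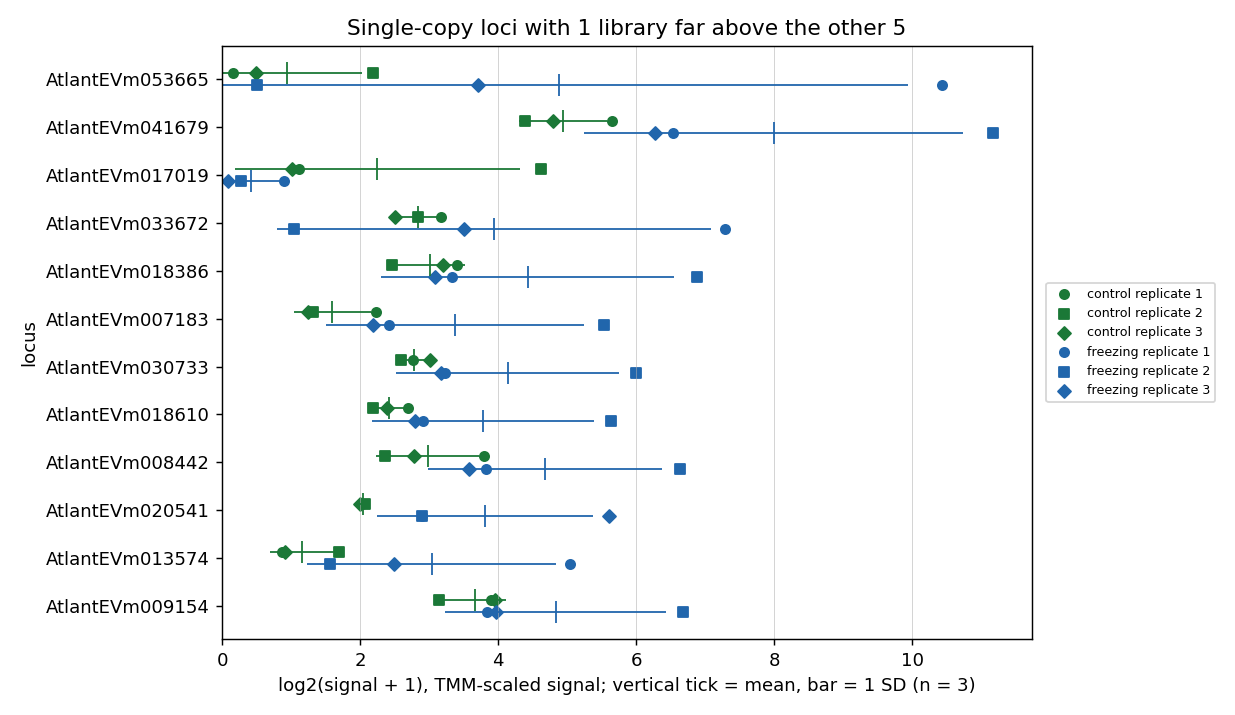
Signal in the 6 libraries, on a log2(signal + 1) axis, of the 12 single-copy loci whose highest library exceeded the next by the largest factor; green symbols are control and blue symbols freezing replicates, ticks means and bars 1 SD. One symbol stands far to the right in each row, in most rows freezing replicate 2 (square) or freezing replicate 1 (circle), as with 1375 against at most 12.05 for AtlantEVm053665.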

How the data were processed

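The authors deposited 1 table for Atlantic with a signal per assembled transcript and library, and a placement table with a transcript, a gene model, a chromosome name and a start and end. The deposited signal reads as TPM rescaled by TMM factors, judged from the table's name and column totals. Per the submitters' processing notes, Trimmomatic 0.39 and DESeq2 were used, in unstated steps; no aligner, assembler, abundance program or genome build is given in the sources used here. Columns were matched to samples by name, and 0 were left over. Stranded mRNA libraries are stated per the labels.

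Transcripts were summed to loci with pandas 2.3.3. limma 3.58.1 (R 4.3.3) tested log2(signal + 1), two-sided and with a variance trend, for every locus that reached 1 in 3 or more libraries, adjusted over all of them; this scale understates changes of low loci. The step was tested on simulated data with changes planted only in loci above a signal of about 10, so recovery of changes at lower loci was not covered. Library measures used exact permutation tests in scipy 1.17.1. Loci were named by a rule (the 10 largest changes per direction, the 10 most abundant in control, the 5 longest runs, ties broken by summed signal). Members, lists and rules were chosen with earlier results of these data known, and the companion and single-library analyses after the values were seen. The column names give the same number to 1 control and 1 freezing library. Same-numbered libraries deviated together with correlations of 0.0828, -0.233 and 0.0518, and differently numbered ones with -0.233 to 0.172. The replicate number was therefore not used as a block in the main test.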

Additional observations from a re-analysis of the deposited data

How the results depend on the processing

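The 208 higher and 348 lower single-copy loci became 58 and 117 with a block for the replicate number, 556 and 640 with array weights, 64 and 82 with the stricter filter (a signal of 5 or more, 1020 loci tested), 127 and 199 with a 2-fold minimum, and 36 and 78 for loci with 2 or more placed transcripts. Leaving out any 1 library gave 26 to 266 higher and 59 to 334 lower. Under the other 6 settings, counts stayed within 1.5 times. With no filter, however, single-copy loci were called less often than all loci (1.47% against 1.595% higher, 1.82% against 2.84% lower), and with array weights the shares were 17.0% against 16.05% and 19.55% against 18.5%. No locus called with all libraries was called in the opposite direction under any refit. The 223 ratio calls, an analysis chosen after seeing the data, became 139 with the replicate block and 55 to 242 on leaving out 1 library. The difference in the share of signal, 0.0142 percentage points, was then -0.103 to 0.101. Of 32 called loci that the rule named, 8 kept their call in every refit that tested them, 22 lost it without control replicate 1 and 14 with the block. Among the 8 was AtlantEVm073206, tested under 12 of 14 alternatives, which reached the minimum through the control group alone. Reversed signs occurred only in abundant loci that were never called. On leaving out 1 library, the log2 change ran from -0.594 to 0.0571 for AtlantEVm027637, from -0.0783 to 0.609 for AtlantEVm029275, from -0.0264 to 0.23 for AtlantEVm024246, from -0.447 to 0.113 for AtlantEVm029958, from -0.0300 to 2.12 for AtlantEVm027768 and from -0.0476 to 0.179 for AtlantEVm026312. That of AtlantEVm029275 was -0.0804 with array weights and -0.000942 with placed transcripts only. The causes of these shifts were not tested. Depth is unknown, and most values lie near the minimum.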
